A study of Mus musculus with 15 samples.

Results

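*Cux2*, *Tox* and *Trim24* were followed in the livers of 15 mice, as the rows of the deposited count table that carry these symbols, 3 of 55573 genes. Each symbol matched 1 row. *Cux2* (ENSMUSG00000042589) encodes a homeodomain and cut-repeat transcription factor, *Tox* (ENSMUSG00000041272) an HMG-box nuclear protein best known from T cells, and *Trim24* (ENSMUSG00000029833) a tripartite motif protein that acts as a cofactor of nuclear receptors. There were 3 females and 3 males of the WT and 5 females and 4 males of the ESR1KO genotype, all 8 weeks old, with 1 library per mouse. All mice belong to the strain B6N(Cg)-Esr1tm4.2Ksk/J, in which exon 3 of *Esr1*, the gene for estrogen receptor alpha, is deleted in the knockout in every tissue. ESR1KO mice are homozygous offspring of heterozygous matings and WT mice are littermates, and elevated testosterone is described for knockout mice of both sexes. The deletion is not restricted to hepatocytes, so an effect in liver cells cannot be told apart from one through circulating hormones.

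In rodents the pituitary releases growth hormone in pulses in males and more continuously in females, and liver cells read this pattern through the growth hormone receptor, JAK2 and STAT5. Many liver genes differ between the sexes because of it. *Cux2* is known as a female-specific regulator of this programme, which binds near male-biased genes to repress them and near female-biased genes to raise them, and BCL6 is known as a male-biased repressor that competes with STAT5 for its sites. *Tox* and *Trim24* are also known as female-biased liver genes that respond to the growth hormone pattern.

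Libraries held between 27799061 and 78624766 counts, of which 15.97% to 24.67% fell on the 10 most abundant genes. CPM below are counts per 1000000 counted reads, scaled with TMM factors between 0.957 and 1.035. Fold changes are given with their standard error (SE). The targeted gene was checked first. *Esr1* was at 74.7, 88.2 and 82.8 CPM in the WT females and at 25.0, 31.2 and 52.0 CPM in the WT males. In the ESR1KO females it was at 19.7, 13.9, 11.7, 9.67 and 10.7 CPM, and in the ESR1KO males at 16.1, 12.5, 8.22 and 10.5 CPM. Every ESR1KO mouse lay below every WT mouse, although the count covers all exons and not exon 3 alone. The 6 hepatocyte markers searched (*Alb*, *Apoa1*, *Ttr*, *Tat*, *Cps1*, *Serpina1a*) together held between 75420 and 108500 CPM per library, and none was at 0 in any group.

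The 3 genes lie apart in the genome (GRCm38, GENCODE M21). *Cux2* spans chromosome 5 from 121856366 to 122050102 on the minus strand, with 10082 bases of exons. *Tox* spans chromosome 4 from 6686353 to 6991557 on the minus strand, with 7609 bases of exons. *Trim24* spans chromosome 6 from 37870811 to 37966296 on the plus strand, with 8521 bases of exons. The stretches before their annotated start sites are shown because all 3 genes were higher in females, and motifs of the liver's growth hormone pathway were searched in them. RefSeq windows (GRCm38.p6), which reach 250 bases before a start site, were given for *Cux2* and *Trim24*. Both *Cux2* windows lie inside the gene span given above, before the starts of shorter transcripts. The stretches below leave out every annotated exon of the gene, run 5′ to 3′ on the gene's strand, and carry a motif, where one was found, in capitals.

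Cux2 upstream of transcript Cux2-202, chr5:122049852-122050015, minus strand: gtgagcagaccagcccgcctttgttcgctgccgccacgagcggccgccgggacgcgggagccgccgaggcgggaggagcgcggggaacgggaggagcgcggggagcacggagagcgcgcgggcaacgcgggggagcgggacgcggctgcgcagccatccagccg
Cux2 upstream of transcript Cux2-201, chr5:122047892-122048075, minus strand: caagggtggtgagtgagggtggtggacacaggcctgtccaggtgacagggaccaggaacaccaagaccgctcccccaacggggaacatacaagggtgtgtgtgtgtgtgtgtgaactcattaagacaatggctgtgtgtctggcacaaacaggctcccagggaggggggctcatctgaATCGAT
Trim24 upstream of transcript Trim24-201, chr6:37870561-37870810, plus strand: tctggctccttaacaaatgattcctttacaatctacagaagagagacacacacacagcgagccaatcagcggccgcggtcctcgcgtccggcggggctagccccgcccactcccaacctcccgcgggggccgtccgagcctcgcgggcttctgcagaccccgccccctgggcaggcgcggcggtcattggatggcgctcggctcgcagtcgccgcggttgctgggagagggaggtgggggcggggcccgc

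The first *Cux2* stretch and the *Trim24* stretch are rich in G and C (78.7% and 69.6%), and the second *Cux2* stretch holds 57.1%. On both strands of each window of 300 bases, 5 letter patterns were searched: TTCNNNGAA for STAT5, ATTGAT for HNF6, TGTTTAC for FOXA, ATCGAT for CUX proteins and CCGGAAGT for ETS factors. The CUX pattern was found once, in the second *Cux2* window, starting at position -72 from the start site of Cux2-201, and 0.925% of 32851 windows of the same length in the RefSeq table hold it. None of the other patterns was found in the 4 windows of *Cux2* and *Trim24*, and 8.3% of all windows hold the STAT5 pattern. A match is a match of letters only. No bases before the outermost annotated start of *Cux2* were searched, so the absence of a pattern does not cover that stretch.

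In WT livers all 3 genes were higher in females. *Cux2* was at 43.1, 57.9 and 35.5 CPM in the WT females and at 0.568, 0.465 and 0.840 CPM in the WT males. The lowest female thus lay far above the highest male, and the male values rest on only 19 to 53 counts per library. Females exceeded males by a log2 fold change of 6.14 ± 0.602 SE (fold 70.5, edgeR adjusted p = 3.75e-06). *Tox* was at 17.3, 12.2 and 12.2 CPM in the WT females and at 2.64, 4.43 and 3.01 CPM in the WT males. The groups did not overlap, and the log2 fold change was 2.05 ± 0.236 SE (fold 4.14, edgeR adjusted p = 2.25e-05). *Trim24* was at 102.3, 86.3 and 80.0 CPM in the WT females and at 20.9, 21.6 and 30.9 CPM in the WT males. Every female lay above every male, with a log2 fold change of 1.87 ± 0.207 SE (fold 3.66, edgeR adjusted p = 1.5e-05). Of 17655 genes tested, 2.67% were higher in WT females at an adjusted p under 0.05 and 14.8% were higher without overlap of the groups, so 3 of 3 genes stand beside that background. DESeq2's Wald test called 6.94% of genes in either direction. An exact 2-sided permutation test of each gene gave p = 0.1, the smallest p that 3 mice against 3 allow.

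**Figure D1:**
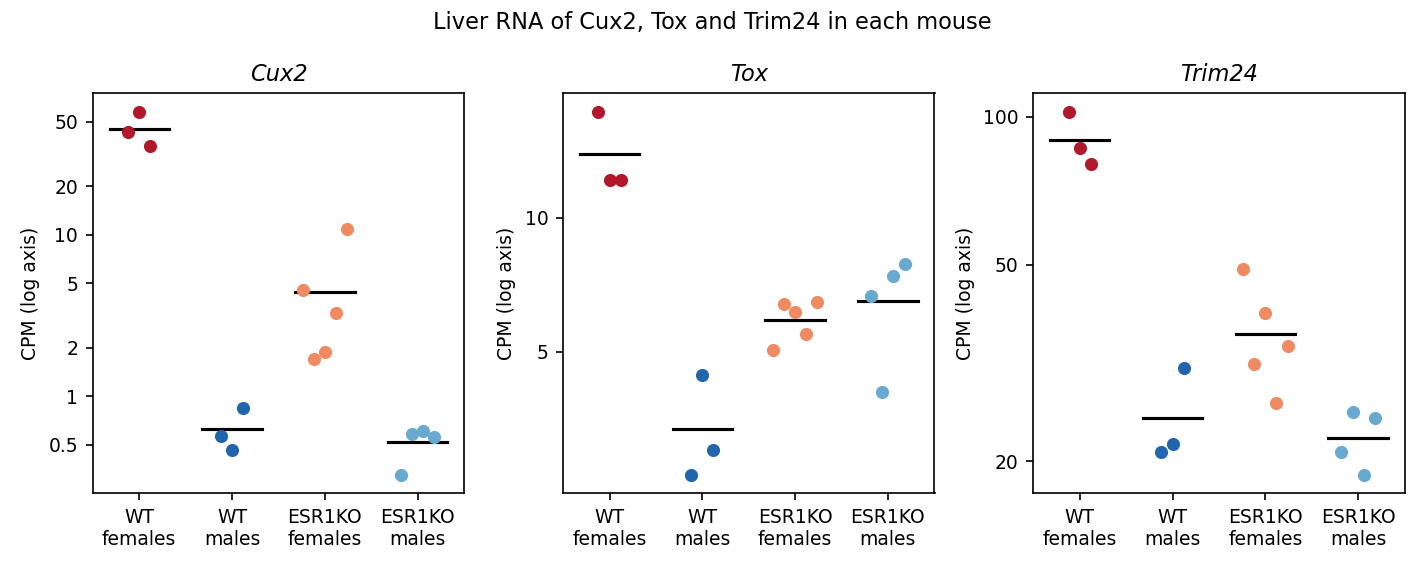
CPM of *Cux2*, *Tox* and *Trim24* (log axis, a range of its own for each gene) in each mouse, with points for mice and lines for the group means. WT females lie highest for all 3 genes, and ESR1KO females lie between the WT sexes except for *Trim24*, where they overlap WT males.

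All 3 genes fell in females without *Esr1*. In the ESR1KO females *Cux2* was at 4.53, 1.71, 1.88, 3.29 and 10.8 CPM, and the fifth mouse stood above the others. All 5 lay below every WT female, with a log2 fold change of -3.32 ± 0.410 SE (edgeR adjusted p = 8.78e-05), and of -3.98 without the fifth mouse. *Tox* was at 5.05, 6.40, 6.15, 5.48 and 6.47 CPM, a narrow range that did not reach the WT females. Its log2 fold change was -1.23 ± 0.197 SE (edgeR adjusted p = 0.00121). *Trim24* was at 49.1, 31.4, 39.9, 26.3 and 34.2 CPM, again below every WT female, with a log2 fold change of -1.31 ± 0.175 SE (edgeR adjusted p = 0.00022). In this comparison 2.57% of genes tested were lower at an adjusted p under 0.05, and 7.61% were lower without overlap. The exact 2-sided permutation test gave p = 0.0357 for each gene, the smallest that 5 mice against 3 allow. The mean level in ESR1KO females was 9.76% of the WT female mean for *Cux2*, 42.6% for *Tox* and 40.4% for *Trim24*. In bulk liver RNA, fewer cells of a type and less RNA per cell cannot be told apart. This comparison and the WT sex difference share the WT females.

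Of the 3 genes, *Tox* alone passed between the male genotypes. *Cux2* was at 0.325, 0.583, 0.610 and 0.559 CPM in the ESR1KO males, within the range of the WT males except for the first mouse. That mouse has the smallest library and 9 *Cux2* counts, for which an exact Poisson interval of 95% runs from 0.149 to 0.618 CPM and covers counting error only. The log2 fold change of ESR1KO over WT males was -0.25 ± 0.648 SE (edgeR adjusted p = 0.926). *Trim24* was at 20.9, 25.1, 18.7 and 24.4 CPM, overlapping the WT males, with a log2 fold change of -0.13 ± 0.189 SE (edgeR adjusted p = 0.857). *Tox* was at 6.69, 4.06, 7.42 and 7.89 CPM in the ESR1KO males. Of these, 3 lay above every WT male and the second lay below the highest WT male. *Tox* rose with a log2 fold change of 0.96 ± 0.223 SE (fold 1.95, edgeR adjusted p = 0.0397), where 0.833% of genes tested rose. The exact 2-sided permutation test gave p = 0.114 for *Tox*, where 4 mice against 3 allow 0.0571. The *Tox* call was lost in 8 of 15 fits that left out 1 mouse, with adjusted p up to 0.203 without the third WT male.

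Whether the effect of the genotype differed between the sexes was tested as an interaction, the log2 fold change in females minus that in males. It was -2.20 for *Tox* ± 0.298 SE (edgeR adjusted p = 0.000387), which fell in females and rose in males, and -1.17 for *Trim24* ± 0.261 SE (edgeR adjusted p = 0.0251). For *Cux2* it was -3.07 ± 0.772 SE and did not pass (edgeR adjusted p = 0.0523). At an adjusted p under 0.05, the interaction was below 0 in 0.923% of genes tested. For *Cux2* it passed without the fifth ESR1KO female (-3.73, edgeR adjusted p = 0.000339) and without the third (-2.88, edgeR adjusted p = 0.0485). For *Trim24* the call was lost without any 1 of 5 mice (WT females 1 and 2, WT males 1 and 2, ESR1KO male 4), with adjusted p between 0.0516 and 0.0924.

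**Figure D2:**
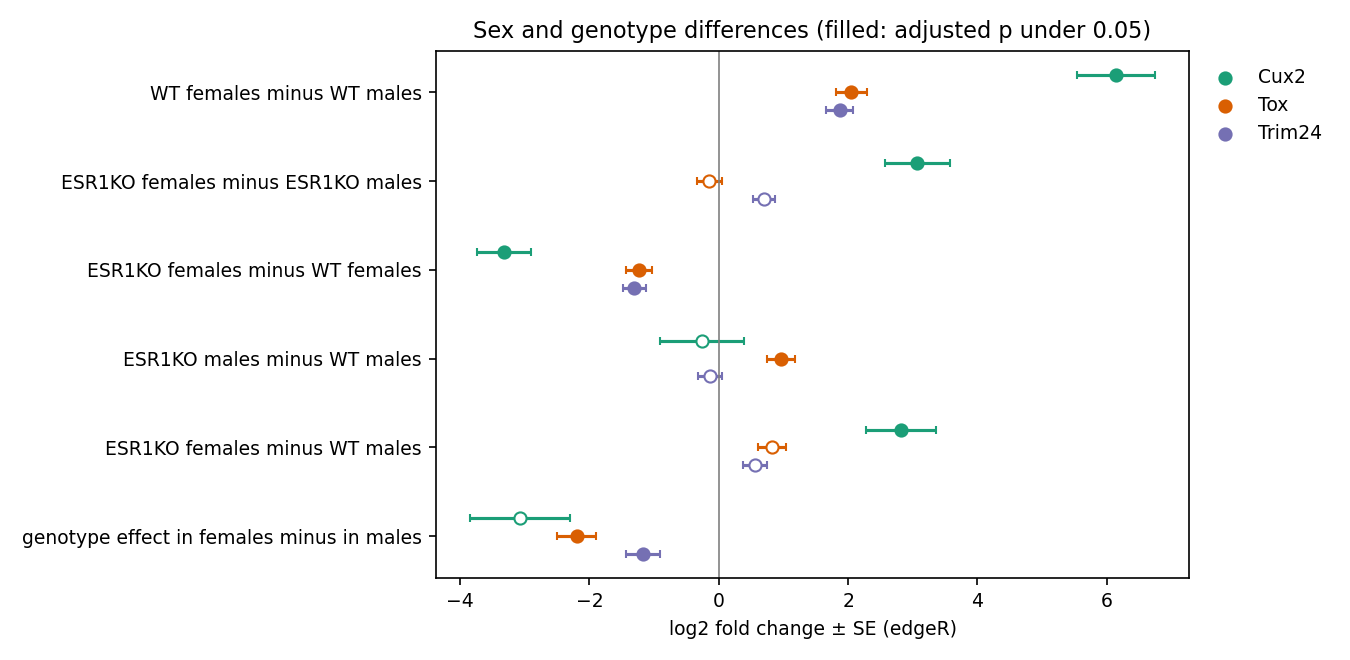
Log2 fold change with its standard error (edgeR) of *Cux2*, *Tox* and *Trim24* in 6 comparisons, with filled points where the adjusted p was under 0.05. All 3 genes pass in WT mice (6.14, 2.05 and 1.87) and between the female genotypes, while between the ESR1KO sexes only *Cux2* (3.07) does.

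Between the ESR1KO sexes the 3 genes parted. *Cux2* was higher in every ESR1KO female than in every ESR1KO male, with a log2 fold change of 3.07 ± 0.50 SE (fold 8.41, edgeR adjusted p = 0.0099). In this comparison 0.159% of genes tested were higher in females at an adjusted p under 0.05, 28 genes in all. *Trim24* was also higher in every female than in every male, but its log2 fold change of 0.70 ± 0.168 SE did not pass (edgeR adjusted p = 0.0823), and 2.56% of genes tested were higher without overlap. The exact 2-sided permutation test gave p = 0.0159 for both genes, the smallest that 5 mice against 4 allow. DESeq2's Wald test called *Trim24* too (adjusted p = 0.00963), as did edgeR with no filter on low counts (adjusted p = 0.00887). DESeq2 called 3.13% of the 14574 genes that it gave an adjusted p in this comparison. *Tox* overlapped between the sexes, with a log2 fold change of -0.14 ± 0.187 SE (edgeR adjusted p = 0.701) and an exact permutation p of 0.683. Without the fifth ESR1KO female the *Cux2* log2 fold change was 2.41 (edgeR adjusted p = 0.00158). The *Cux2* call was lost without the first ESR1KO male (adjusted p = 0.0508), without the fourth (0.0547) and in a fit of the ESR1KO mice alone (0.0546).

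ESR1KO females were also set against WT males, to see whether they reached the male level. *Cux2* stayed higher in every ESR1KO female than in every WT male, with a log2 fold change of 2.82 ± 0.546 SE (edgeR adjusted p = 0.00924), where 1.38% of genes tested were higher. Without the fifth ESR1KO female it was 2.16 (edgeR adjusted p = 0.00231), and the call was lost without the first (adjusted p = 0.0572) or the second WT male (0.0528). *Tox* was higher without overlap, as were 5.34% of genes tested, but its log2 fold change of 0.82 ± 0.215 SE did not pass (edgeR adjusted p = 0.0541). *Trim24* overlapped, since the fourth ESR1KO female (26.3 CPM) lay below the third WT male (30.9 CPM), and its log2 fold change of 0.56 ± 0.184 SE did not pass (edgeR adjusted p = 0.124). The exact permutation p was 0.0357 for *Cux2* and *Tox* and 0.0714 for *Trim24*.

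To compare genes of unlike sex difference, each ESR1KO mouse was placed between the WT means of log2 CPM, with 0 for WT females and 1 for WT males. ESR1KO females stood at 0.599 ± 0.175 for *Cux2*, 0.592 ± 0.0755 for *Tox* and 0.706 ± 0.181 for *Trim24* (SD, n = 5). ESR1KO males stood at 1.04 ± 0.0635 for *Cux2*, 0.543 ± 0.211 for *Tox* and 1.06 ± 0.105 for *Trim24* (SD, n = 4). For *Cux2* the females ran from 0.334 to 0.765 and the males from 0.999 to 1.13. For *Trim24* the females ran from 0.456 to 0.933 and the males from 0.966 to 1.19. For *Tox* the females ran from 0.525 to 0.699, inside the male range of 0.387 to 0.852. ESR1KO males thus sat near the WT male mean for *Cux2* and *Trim24*, and midway between the WT sexes for *Tox*. The sexes differed by -0.441 for *Cux2* and -0.357 for *Trim24* (exact 2-sided permutation p = 0.0159 each), and by 0.0495 for *Tox* (exact permutation p = 0.683). Position only rescales the log2 CPM of each gene. These p-values are therefore the permutation tests already given for the ESR1KO sexes, and no further result.

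**Figure D3:**
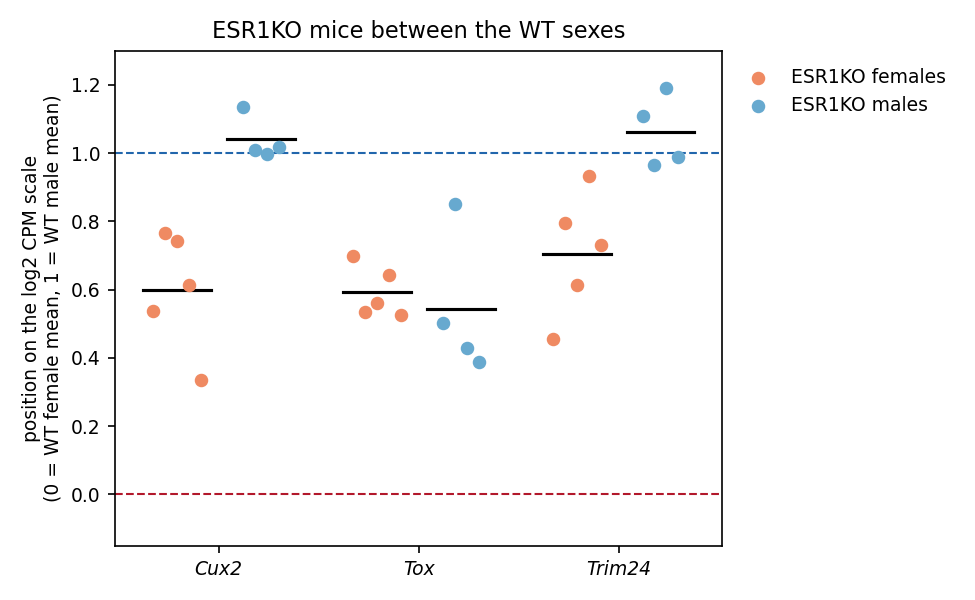
Position of each ESR1KO mouse on the log2 CPM scale, where 0 is the WT female mean and 1 the WT male mean (dashed lines), with lines for the group means. ESR1KO males lie near 1 for *Cux2* (1.04) and *Trim24* (1.06) but at 0.543 for *Tox*, where they overlap the ESR1KO females.

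Per kilobase of exon, *Trim24* was the most abundant of the 3 genes in every group. It was at 10.5 ± 1.35 CPM per kb in WT females, 2.87 ± 0.655 in WT males (SD, n = 3 each), 4.24 ± 1.02 in ESR1KO females (SD, n = 5) and 2.62 ± 0.354 in ESR1KO males (SD, n = 4). *Cux2* was at 4.51 ± 1.13 CPM per kb in WT females, above *Tox* at 1.83 ± 0.392 (SD, n = 3). In WT males the order was turned, with *Cux2* at 0.0619 ± 0.0193 and *Tox* at 0.442 ± 0.124 CPM per kb (SD, n = 3). The ratio of *Cux2* to *Tox* per length was between 1.88 and 3.60 in the WT females, between 0.202 and 1.26 in the ESR1KO females, between 0.0792 and 0.211 in the WT males and between 0.0367 and 0.108 in the ESR1KO males. Among the ESR1KO females the fifth mouse alone kept more *Cux2* than *Tox*. For *Cux2* and *Trim24* the groups ran from WT females through ESR1KO females and WT males down to ESR1KO males, and the neighbours WT and ESR1KO males overlapped for both, as did ESR1KO females and WT males for *Trim24*. For *Tox* the order was WT females, ESR1KO males, ESR1KO females and WT males, and ESR1KO males overlapped the 2 groups below them.

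*Cux2* was the most variable of the 3 in ESR1KO females, where the highest mouse had 6.32 times the CPM of the lowest, against 1.28 times for *Tox* and 1.87 times for *Trim24*. In WT females the highest *Cux2* mouse had 1.63 times the CPM of the lowest. The fifth ESR1KO female, highest for *Cux2* and *Tox*, ranked 3 of 5 for *Trim24*. Of 18 female-typical liver genes (*A1bg*, *Acot3*, members of the Cyp2 and Cyp3a families and others), 3 were highest in that mouse, against 5, 3, 1 and 6 in mice 1 to 4. *Cyp2b9*, a female-specific cytochrome P450, was at 15.8, 44.1, 40.3, 49.0 and 27.6 CPM in ESR1KO females 1 to 5. *A1bg*, a female-specific plasma protein gene, was at 1.80, 5.96, 3.75, 9.94 and 3.77 CPM in the same order. For both genes the highest mouse was the fourth and not the fifth.

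The members' patterns were compared as Pearson correlations of log2 CPM over the 15 libraries, given as descriptions. The 3 WT females stand apart in each of them. *Cux2* and *Trim24* had r = 0.930 and a rank correlation of 0.886, and each was among the 7 genes most like the other. *Tox* had r = 0.725 with *Cux2* and 0.715 with *Trim24*, with rank correlations of 0.464 and 0.439. Over the 12 libraries without WT females, r was 0.745 for *Cux2* and *Trim24*, 0.194 for *Cux2* and *Tox*, and 0.0439 for *Tox* and *Trim24*. This last set of values was added after the data were seen.

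Among the 5 genes most like *Cux2* were *Gm20634* (r = 0.948), *Ctsc* (0.947), *A1bg* (0.936) and *Prom1* (0.933). *Ctsc*, which encodes a lysosomal protease, was at 138.9 ± 11.9 CPM in WT females (SD, n = 3) and 83.3 ± 13.4 in ESR1KO females (SD, n = 5). The genes most unlike *Cux2* were *Nat8f6* (r = -0.941), *Tff3* (-0.929) and *Mup-ps20* (-0.920). The genes most like *Tox* were *4732463B04Rik* (r = 0.938), *Abcb1a* (0.918), *Dpf3* (0.915), *Gypc* (0.904) and *Cyp2c38* (0.900), and the most unlike were *Ugt2b38* (-0.963), *C9* (-0.958) and *Nudt7* (-0.939). *Abcb1a*, an efflux transporter gene, was at 13.0 ± 1.72 CPM in WT females and 2.73 ± 0.223 in WT males (SD, n = 3 each). It was at 5.70 ± 0.876 CPM in ESR1KO females (SD, n = 5) and 5.27 ± 0.593 in ESR1KO males (SD, n = 4), so the ESR1KO sexes overlapped as they did for *Tox*. *Cyp2c38*, a cytochrome P450 gene, was at 48.3 ± 12 CPM in ESR1KO males (SD, n = 4) and 14.8 ± 2.07 in WT males (SD, n = 3). All genes of this paragraph were chosen for their likeness or unlikeness to a member over these same libraries. Levels that follow those of the member are thus no separate result. Among the 5 genes most like *Trim24* were *Rdh16f2* (r = 0.961), *Gm38811* (0.944), *Fam84b* (0.939) and *Pop1* (0.935), and the most unlike were *Pdhx* (-0.968), *Slc15a5* (-0.953) and *Col5a3* (-0.945). *Rdh16f2*, of the retinol dehydrogenase family, was at 209.9 ± 6.48 CPM in WT females and 56.6 ± 11.7 in WT males (SD, n = 3 each), and at 88.9 ± 10.1 in ESR1KO females (SD, n = 5).

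The near relatives of the 3 genes were measured too. Of 7 paralogs, *Tox2*, *Tox3* and *Trim66* were too low to be tested, with 8 to 24, 4 to 16 and 12 to 20 summed counts per group. *Cux1*, *Tox4*, *Trim28* and *Trim33* passed in 0 of 6 comparisons by edgeR at an adjusted p under 0.05. At an unadjusted p under 0.05, 1 of the 4 passed between the WT sexes, 1 between the ESR1KO sexes and 1 between ESR1KO females and WT males, where 17.3%, 17.5% and 17.4% of all genes tested did. *Cux1*, a broadly expressed relative of *Cux2*, was at 33.0 ± 1.57 CPM in WT females and 42.2 ± 1.26 in WT males (SD, n = 3 each). Its log2 fold change of -0.35 ± 0.104 SE (edgeR adjusted p = 0.0623) lay opposite to that of *Cux2*, and it passed by DESeq2's Wald test (adjusted p = 0.0137) and in 3 other fits by edgeR, with only the groups compared (0.0218), with DESeq2's size factors (0.0499) and without the first ESR1KO female (0.0236). In ESR1KO females against WT males *Cux1* passed by DESeq2's Wald test (-0.35, adjusted p = 0.0106), with the replicate block in edgeR (0.0334) and without the fifth ESR1KO female in edgeR (0.037). *Trim28* had 0.16 ± 0.162 SE, *Trim33* 0.02 ± 0.128 SE and *Tox4* -0.02 ± 0.0975 SE in WT females over males. Per kilobase of exon, *Cux1* stood at 1.65 CPM in WT females and 2.11 in WT males, where *Cux2* stood at 4.51 and 0.0619.

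Growth hormone signalling genes, from the receptor *Ghr* through *Jak2* and the *Stat* genes to *Socs2*, *Cish* and *Igf1*, were set beside the 3 genes. Of 15 tested, 1 was higher in WT females than in WT males, the prolactin receptor gene *Prlr*, and 0 were lower. Of all genes tested, 2.67% were higher and 2.2% lower. *Prlr* was at 313.3 ± 43.9 CPM in WT females and 61.7 ± 23.8 in WT males (SD, n = 3 each), with a log2 fold change of 2.34 ± 0.268 SE (edgeR adjusted p = 2.15e-05). The median log2 fold change of the list was 0.0849, against 0.0143 over all genes tested. In ESR1KO females against WT females 2 fell, *Prlr* by 0.92 on the log2 scale ± 0.224 SE (edgeR adjusted p = 0.0253) and *Stat5a* by 0.84 ± 0.220 SE (edgeR adjusted p = 0.0357). Of all genes tested, 2.57% fell. The median of the list was -0.231, against -0.0013 over all genes. In ESR1KO males against WT males, 0 of 15 passed by edgeR or by DESeq2's Wald test, and 0 had an unadjusted p under 0.05, where 11.9% of all genes tested had one. Between the ESR1KO sexes 0 of 15 passed by edgeR, 5 had an unadjusted p under 0.05, and 2 passed by DESeq2's Wald test. Of all genes tested 0.272% passed by edgeR and 17.5% had an unadjusted p under 0.05, and DESeq2 called 3.13% of 14574 genes.

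**Figure D4:**
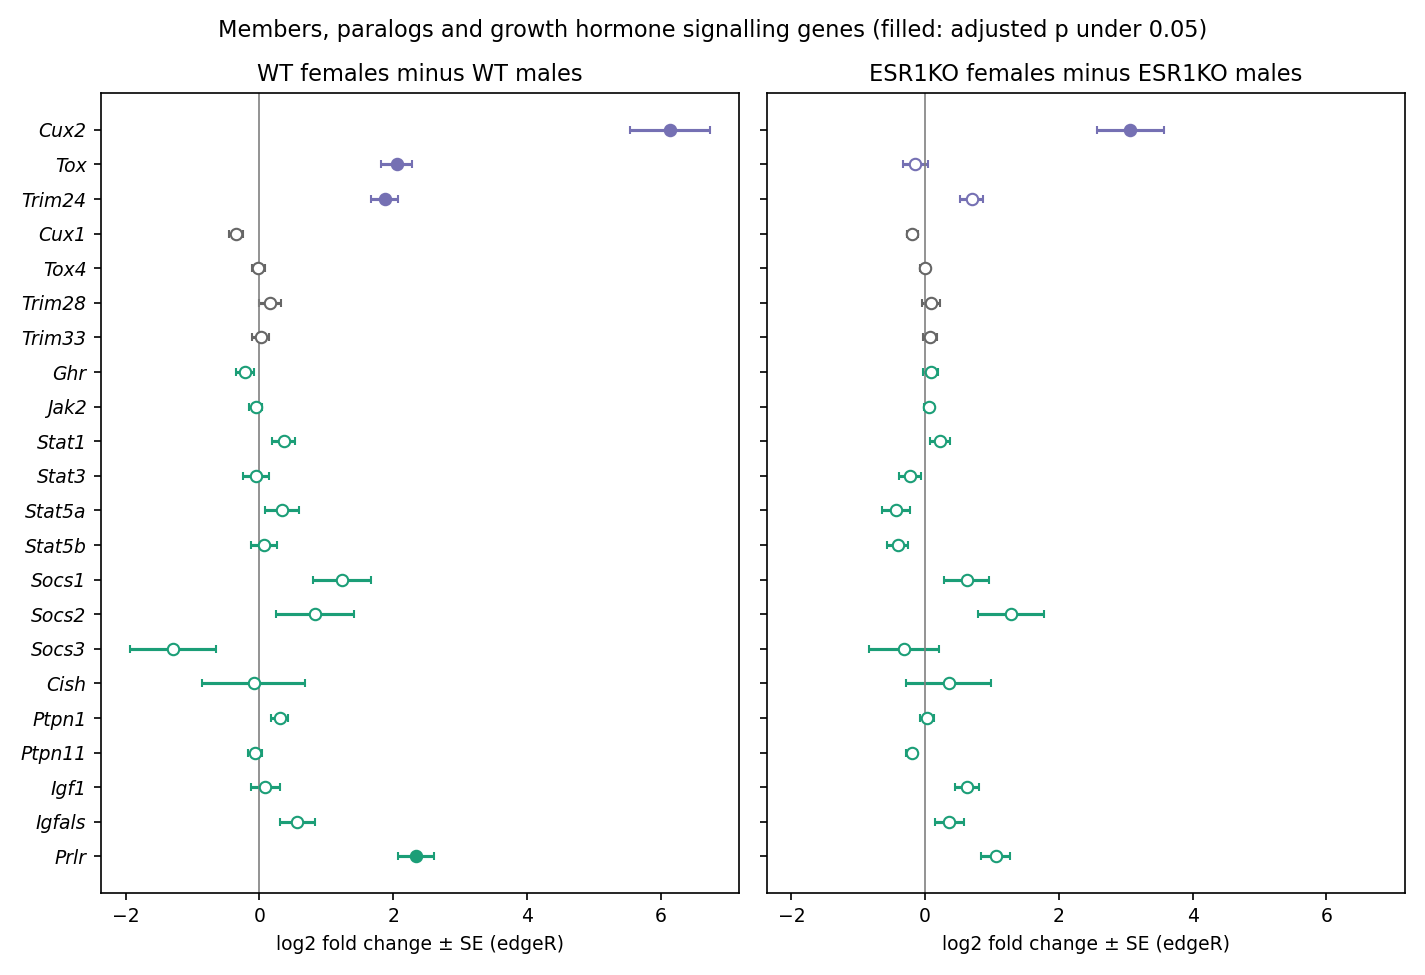
Log2 fold change of females over males with its standard error (edgeR) in WT mice (left) and ESR1KO mice (right) for *Cux2*, *Tox* and *Trim24* (violet), their 4 tested paralogs (grey) and 15 growth hormone signalling genes (green), with filled points where the adjusted p was under 0.05. In WT mice the 3 genes and *Prlr* (2.34) pass, and in ESR1KO mice *Cux2* (3.07) does.

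*Stat5b*, which carries the growth hormone signal in liver, was at 69.3 ± 0.776 CPM in WT females and 66.1 ± 9.20 in WT males (SD, n = 3 each). It did not pass in any comparison, and its lowest adjusted p was 0.0923, in ESR1KO females against WT females (log2 fold change -0.50 ± 0.169 SE, edgeR). *Ghr*, the receptor, had a log2 fold change of -0.22 ± 0.131 SE (edgeR adjusted p = 0.438) in WT females over males. *Socs2*, a feedback inhibitor, had 0.84 ± 0.585 SE (edgeR adjusted p = 0.512), and *Igf1*, the secreted growth factor, 0.08 ± 0.216 SE (edgeR adjusted p = 0.888).

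Of 20 other liver transcription regulators, 3 were higher in WT females than in WT males and 0 were lower, where 2.67% and 2.2% of all genes tested were. Among these were *Esr1* itself (log2 fold change 1.18 ± 0.281 SE, edgeR adjusted p = 0.0194) and *Nr1i3*, the gene for the xenobiotic receptor CAR (0.95 ± 0.227 SE, edgeR adjusted p = 0.0202). In each comparison of ESR1KO with WT mice, the 1 regulator of 20 that passed was *Esr1*. *Bcl6* varied widely between mice, from 6.34 to 10.7 CPM in WT females, 18.1 to 77.1 in WT males, 4.61 to 35.5 in ESR1KO females and 8.56 to 84.8 in ESR1KO males. WT females lay below WT males without overlap, as they did for 15.3% of genes tested, but its log2 fold change of -2.12 ± 0.765 SE did not pass (edgeR adjusted p = 0.145).

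Genes typical of each sex were counted as the setting in which the 3 regulators moved. These lists were chosen as known sex-biased liver genes with earlier results of these data at hand, so their WT sex difference is no independent result. Comparisons of ESR1KO with WT mice and the interaction share the WT mice with it, so the counts called there are descriptions only. Of 18 female-typical genes, 18 were higher in WT females, and 16 fell in ESR1KO females, beside the 2.67% and 2.57% of all genes given above. *Cyp3a16*, *Cyp3a41b* and *Sult2a1* had at most 1 summed count in each group other than WT females, and *Cyp3a41a*, *Cyp2b13* and *Sult3a1* had at most 15. Such genes were tested through their WT female counts alone and could only be higher there. The shares over all genes are no fair background for them. In ESR1KO females against ESR1KO males 6 of the 18 were higher (among them *A1bg*, *Cyp2a4*, *Cyp2b9*, *Cyp2c40* and *Cyp2c69*), as was *Cux2*, where 0.159% of all genes tested were. The median log2 fold change of the 18 was 1.92 against 0.0114 over all genes. Without 4 genes whose counts summed to 3 or fewer in each group, the median of the other 14 was 2.55. In ESR1KO males against WT males 4 rose (*Acot3*, *Cyp2a4*, *Cyp2b9* and *Hao2*), as did *Tox*, where 0.833% of all genes tested rose. *Cyp2b9* had 0 counts in all 3 WT males and lay between 0.910 and 4.77 CPM in the 4 ESR1KO males. Of 17 male-typical genes, 17 were lower in WT females, 15 rose in ESR1KO females and 8 fell in ESR1KO males, where 2.2%, 3.14% and 0.583% of all genes tested did. *Moxd1*, with 0 to 4 summed counts in each group other than WT males, was tested through the WT males alone. *Cyp7b1*, a steroid hydroxylase gene, fell from 721.9 ± 20.8 CPM in WT males (SD, n = 3) to 108.2 ± 31.9 in ESR1KO males (SD, n = 4), where WT females had 52.9 ± 17.7 (SD, n = 3). Between the ESR1KO sexes 0 of 17 passed by edgeR, 7 had an unadjusted p under 0.05, and 3 were lower in females by DESeq2's Wald test. Of all genes tested 0.272% passed by edgeR and 17.5% had an unadjusted p under 0.05. DESeq2 called 3.13% of 14574 genes in both directions. The median log2 fold change of the 17 male-typical genes there was -0.371. The interaction contains the WT sex difference for which these lists were chosen. It passed for 17 of 17 male-typical and 13 of 18 female-typical genes, where 1.94% of all genes tested did.

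*Tox* is also used by T cells, so T cell RNA was measured beside it. The 8 T cell markers searched (*Cd3d*, *Cd3e*, *Cd3g*, *Cd4*, *Cd8a*, *Trac*, *Lck*, *Thy1*) summed to between 3.56 and 5.09 CPM in WT females and between 3.55 and 4.90 CPM in WT males. They summed to between 3.14 and 4.74 CPM in ESR1KO females and between 3.17 and 3.58 CPM in ESR1KO males, and none was at 0 in any group. The sums of the WT sexes overlapped, but the markers were split. Of the 8, 6 had an estimate above 0 in WT females over males, with a median log2 fold change of 0.455 against 0.0143 over all genes tested. *Cd3g* was higher (log2 fold change 1.0, edgeR adjusted p = 0.0378) and *Cd4* lower (-0.97, edgeR adjusted p = 0.0412), where 4.87% of all genes tested passed in either direction. Without overlap of the groups, *Cd3g*, *Cd8a* and *Lck* were higher and *Cd4* was lower, where 14.8% and 15.3% of all genes tested were. Between the male genotypes, where *Tox* rose, 8 of 8 markers had an estimate below 0, and 0 passed by edgeR or by DESeq2's Wald test, with 1 at an unadjusted p under 0.05 (11.9% of all genes tested). Between the female genotypes 0 of 8 passed by either tool, and 0 had an unadjusted p under 0.05 (22.5% of all genes tested). The part of T cells in the *Tox* values was not tested.

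Markers of other cell types moved in some of the same comparisons. Between the ESR1KO sexes, where *Cux2* was higher in females, the 5 Kupffer cell markers summed to between 308.3 and 394.7 CPM in females and between 235.9 and 306.7 CPM in males, without overlap. *Vsig4*, one of them, was higher in females (log2 fold change 0.61, edgeR adjusted p = 0.021), 4 of the 5 had an unadjusted p under 0.05, and 4 passed by DESeq2's Wald test. Of all genes tested, 0.159% were higher in females by edgeR and 17.5% had an unadjusted p under 0.05. DESeq2 called 3.13% of the 14574 genes that it gave an adjusted p. Between the male genotypes, where *Tox* rose, the 4 cholangiocyte markers summed to between 4.69 and 5.50 CPM in ESR1KO males and between 3.29 and 4.31 CPM in WT males. Here *Krt19* (log2 fold change 1.23, edgeR adjusted p = 0.0307) and *Epcam* (0.95, edgeR adjusted p = 0.03) rose, as 0.833% of all genes tested did. *Krt7* (0.56) and *Sox9* (-0.28) did not pass. *Epcam* was also higher in WT females than in WT males (1.08, edgeR adjusted p = 0.00657), while *Sox9* was lower (-1.03, edgeR adjusted p = 0.0384). Of all genes tested, 2.67% were higher and 2.2% lower there. The 6 hepatocyte markers summed to between 101700 and 108500 CPM in WT females and between 75420 and 77170 CPM in WT males. Of these, *Alb* was higher in WT females (0.66, edgeR adjusted p = 0.0383), while 4 had estimates below 0 and the median of the list was -0.164. In WT mice the sums ran from 297.1 to 381.4 CPM for Kupffer cell, from 268.9 to 404.9 CPM for endothelial cell and from 332.5 to 477.4 CPM for stellate cell markers. The part of these cell types in the values of the 3 genes was not tested.

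Genes next to the 3 regulators were counted as well. Within 500 kb of *Cux2*, 35 of 55 annotated genes were tested, and 0 passed by edgeR between the WT sexes (3 at an unadjusted p under 0.05, 1 by DESeq2's Wald test) or between the ESR1KO sexes (7 and 1). Over all genes tested, 4.87% passed between the WT sexes, 17.3% at an unadjusted p and 6.94% by DESeq2. Between the ESR1KO sexes these shares were 0.272%, 17.5% and 3.13%, the last of the 14574 genes that DESeq2 gave an adjusted p. In ESR1KO females *Hectd4* (log2 fold change -0.45, edgeR adjusted p = 0.0396) and the unclassified locus *Gm43571* (-0.66, edgeR adjusted p = 0.0498) fell, as did 2.57% of all genes tested. Within 500 kb of *Tox*, 5 of 12 annotated genes were tested, among them *Cyp7a1*, the rate-limiting enzyme of bile acid synthesis. Of these, 0 passed in any of 6 comparisons by edgeR or DESeq2's Wald test. At an unadjusted p under 0.05 there were 2 or fewer in each. The 2 were between the ESR1KO sexes, where 17.5% of all genes tested had one. At shares such as 4.87% passing between the WT sexes, 0 of 5 does not set these genes apart. Within 500 kb of *Trim24*, 12 of 19 annotated genes were tested, and 2 passed between the WT sexes. There *Akr1d1*, which encodes a steroid reductase of bile acid synthesis, was higher in WT females (log2 fold change 1.03, edgeR adjusted p = 0.0051). The pseudogene *Gm7463*, which lies within the span of *Akr1d1*, was higher too (1.29, edgeR adjusted p = 0.012) and fell in ESR1KO females (-0.90, edgeR adjusted p = 0.0413). Antisense genes overlap *Cux2* at 2 places and *Tox* at 1 place, with between 0 and 2 counts each over all libraries.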

How the data were processed

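Liver RNA of 15 mice was depleted of ribosomal RNA and sequenced. Trimmed reads were mapped by the authors with STAR on the mouse build GRCm38, HTSeq assigned them to genes, and the deposited values are raw counts per gene. The submitters' processing notes name Trimmomatic 0.36 and HTSeq 0.6.0, where the study's methods name a later HTSeq version. The annotation release, strand setting and treatment of reads with several matches are not given in the sources used here, so reads of a gene and an antisense partner cannot be told apart. Mice were grouped by the sex and genotype of their labels, and p-values measure the spread between mice.

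Tests ran in edgeR 4.0.16 under R 4.3.3 (filterByExpr by group, TMM, quasi-likelihood F test on all 15 libraries with a mean per group) and Benjamini-Hochberg adjustment over 17655 tested genes. A gene passed at an adjusted p under 0.05. Position and likeness used log2 CPM with a prior count of 2. Standard errors were taken from the fold change and the F statistic. No pair of libraries within a group agreed within sampling noise. The model was tested on simulated data. Alternatives were DESeq2 1.42.0, other scalings and filters, only the groups compared, a replicate block, and each mouse left out in turn. The members and the gene lists were chosen with earlier results of these data known. Named are the 3 members, their paralogs, *Bcl6*, *Stat5b*, *Ghr*, *Socs2*, *Igf1*, *A1bg*, *Cyp2b9* and *Cyp7b1*, up to 6 genes per list and comparison that passed, the 5 most and 3 least alike genes per member, and neighbours that passed; a few others are named in passing, and a few that the rule selects are not reported here. Markers of NK cells and B cells were also summed, at 0.705 to 2.15 and 2.10 to 5.25 CPM.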

Additional observations from a re-analysis of the deposited data

Results flagged for a closer look

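The genotype effect differed between the sexes by the test of the interaction (edgeR quasi-likelihood test, Benjamini-Hochberg) for *Tox* (adjusted p = 0.000387), which was lower in all 5 ESR1KO females than in any WT female and higher in 3 of 4 ESR1KO males than in any WT male. It also differed for *Trim24* (adjusted p = 0.0251). Among the other genes always named, it differed for *A1bg* (adjusted p = 6.85e-05), *Cyp2b9* (adjusted p = 2.02e-05) and *Cyp7b1* (adjusted p = 1.49e-05). These were chosen as sex-biased genes, and the interaction contains the WT sex difference.

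*Cux2* in the first ESR1KO male lay apart from the other 3, with a gap of 0.858 of the group's range, at 9 counts. *Tox4* in the second ESR1KO male lay apart likewise, with a gap of 0.911 of the range, between 39.4 and 42.7 CPM in all. These were 2 of 30 groups of 4 or 5 mice examined, and chance alone would set about 1 in 20 apart.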

How the results depend on the processing

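The 3 genes kept their direction and side of the threshold in 120, 115 and 121 of 131 fits each (*Cux2*, *Tox*, *Trim24*). Calls lost or gained by another tool, filter, scaling or choice of samples were as follows (log2 fold changes), and the cause was not tested. With only the groups compared, *Cux2* between the ESR1KO sexes (3.07) and *Tox* in males (0.96) no longer passed, the latter also with total counts only (0.94). By DESeq2's Wald test and with no filter, the *Cux2* interaction (-3.08 and -3.00), *Tox* in ESR1KO females over WT males (0.80 in both) and *Trim24* between the ESR1KO sexes (0.69 and 0.70) passed. Without the third WT male the estimates in males turned to 0.061 for *Cux2* and 0.072 for *Trim24*, neither of them called.

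With 1 mouse left out, *Tox* in ESR1KO females over WT males passed without the first WT female (adjusted p = 0.0481), the second WT male (0.0316) or the second ESR1KO male (0.0197), *Trim24* between the ESR1KO sexes without the fourth ESR1KO female (0.0437), and the *Cux2* interaction without the third or the fifth (edgeR). *Cux2* ranged from 2.41 to 3.27 between the ESR1KO sexes, from 2.16 to 3.13 in ESR1KO females over WT males, from -0.42 to 0.061 in males and from -3.73 to -2.86 in the interaction. *Tox* ranged from 0.82 to 1.20 in males and from 0.68 to 1.06 in ESR1KO females over WT males. *Trim24* ranged from 0.56 to 0.79 between the ESR1KO sexes, from -0.24 to 0.072 in males and from -1.38 to -1.07 in the interaction.

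Replicate numbers did not pair the mice: the correlation of deviations ran from -0.195 to 0.14 over 19 same-numbered pairs, and 1 of 14 libraries correlated best with its own number. With the number as a block, *Cux2* had an interaction of -3.75 that passed, while *Tox* in males (0.91) and the *Trim24* interaction (-1.19) did not, and 165 genes passed between the male genotypes.

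Genes passing numbered 860, 48, 1008, 250, 461 and 343 in the WT sexes, the ESR1KO sexes, female genotypes, male genotypes, ESR1KO females against WT males and the interaction. With a log2 fold change of at least 1.5 they numbered 319, 25, 212, 102, 144 and 192. DESeq2's Wald test called 456, 1546, 499, 875 and 594 from the ESR1KO sexes on. Only the groups compared gave 26, 457, 422 and 242 from the ESR1KO sexes on, and no filter 313 (ESR1KO sexes) and 411 (male genotypes). Leaving out 1 mouse gave 541 to 1096, 26 to 109, 413 to 1538, 100 to 331, 215 to 722 and 242 to 393. Positions moved by less than their SD in all alternatives. Spearman's correlation kept 1, 2 and 1 of the 5 genes most like *Cux2*, *Tox* and *Trim24*. List counts stayed within 1.5 times in 1264 of 1310 fits. Depth limits *Cux2* in males, at 9 to 53 counts per library.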
